A study of Mus musculus with 6 samples.

Results

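Nonsense-mediated decay (NMD) is the quality-control pathway that destroys messenger RNAs whose translation stops too early. In mammals a stop codon is read as premature when an exon junction complex, a mark left by splicing, remains bound to the RNA well downstream of it. The helicase UPF1 gathers at the stalled ribosome, the kinase SMG1 phosphorylates it, UPF2 and UPF3 link it to the junction complex, and SMG5 and SMG6 lead to cleavage and decay of the message. Because errors of splicing can create premature stops, NMD is a route by which a cell disposes of mis-spliced transcripts. In human cells several NMD factor transcripts are themselves targets of the pathway and accumulate when it is impaired.

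The 8 genes described here are Upf1, Upf2, Upf3a, Upf3b, Smg1, Smg5, Smg6 and Casc3, out of 54532 gene rows in the count files. Each symbol was on the given list of NMD factors and matched 1 Ensembl gene identifier in the GENCODE mouse annotation. Gene counts came from total RNA sequencing of mouse embryo heads at embryonic day 8.5, with 3 heads in each pool. The mutant pools, 3 in number, came from embryos that lack Sf3b4 in neural crest, a migratory population that forms much of the face. Their titles call them homozygous null, whereas their genotype entries name a neural crest mutant; the sources used here do not give the deleting allele or its driver. The other 3 pools came from wild-type (WT) embryos. SF3B4 is a subunit of the U2 splicing particle that binds introns near the branch site. The comparison bears on whether loss of this splicing factor in the crest changes the level of the decay machinery in the head, before abnormal form is seen. Nothing in the labels ties the pools to separate litters, and the p-values therefore reflect only the spread among these 6 pools. Y-linked counts, given below, differed between pools of the same genotype, so not all pools of a genotype came from the same embryos. Part of the spread may still be technical.

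Total counts ranged from 7420956 to 12251910 in the mutant pools and from 6930827 to 11797020 in the WT pools, and 14008 genes were tested. Sf3b4 averaged 60.4 ± 4.09 CPM in the mutant pools and 71.4 ± 6.97 CPM in the WT pools (CPM, the read count scaled to a common library size with TMM factors; SD, n = 3 each), a difference that missed the threshold (log2 fold change -0.24, adjusted p = 0.128 by edgeR's quasi-likelihood test). Whole heads hold other cells beside neural crest, and if the deletion was limited to the crest, as the design text has it, these cells kept Sf3b4. In such bulk samples fewer cells of a type cannot be told apart from less RNA per cell. The summed level of 4 neural crest markers ran from 53.8 to 70.6 CPM in the mutant pools and from 99.5 to 115 CPM in the WT pools. That of 4 surface ectoderm markers ran from 425 to 493 CPM in mutant and from 339 to 384 CPM in WT pools, and that of 4 endothelial markers from 205 to 219 CPM in mutant and from 168 to 190 CPM in WT pools. The 4 neural tube markers summed to 327 to 363 CPM in mutant and 313 to 345 CPM in WT pools, and the 3 head mesenchyme markers to 92.8 to 103 CPM in mutant and 80.6 to 106 CPM in WT pools. Heart markers stayed at or under 31.5 CPM and visceral endoderm markers at or under 6.5 CPM in every pool, while primitive erythroid markers ran from 73.4 to 162 CPM in mutant and from 97.95 to 247 CPM in WT pools. Mutant replicate 3 and WT replicate 1 held 1 Y-linked count each, against 344 to 664 in the other pools. The part of these differences in the results below was not tested.

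All 8 decay machinery genes were readily measured, and none differed between genotypes past the threshold of 0.05 on the adjusted p with edgeR, DESeq2 or limma-voom. Across all tested genes 6.52% passed that threshold, with 3.88% lower and 2.65% higher in mutant pools. All 8 log2 fold changes were negative, from -0.25 for Smg1 to -0.04 for Upf3a, with a median of -0.20, whereas the median of all tested genes was 0.0023 and 49.7% of them were negative. The mutant pools lay wholly below the WT pools for Upf1, Upf3b, Smg1 and Smg6, which is 4 of the 8, while 14.4% of all tested genes did so; none of the 8 lay wholly above, as 13.8% of all tested genes did. Before adjustment 5 of the 8 had a p under 0.05, and 12.2% of all tested genes had such a p in the same direction. With TMM scaling alone the 95% intervals of the fold changes placed every gene between 0.723 and 1.12 times its WT level. Larger falls or rises lie outside the intervals of all 8 in that fit. With length and GC content corrected, the Upf3b interval reached lower, to -0.52 on the log2 scale against -0.47 with TMM alone. Summed over the 8 genes, the level was 817, 836 and 811 CPM in mutant replicates 1, 2 and 3 and 935, 966 and 917 CPM in WT replicates 1, 2 and 3.

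**Figure D1:**
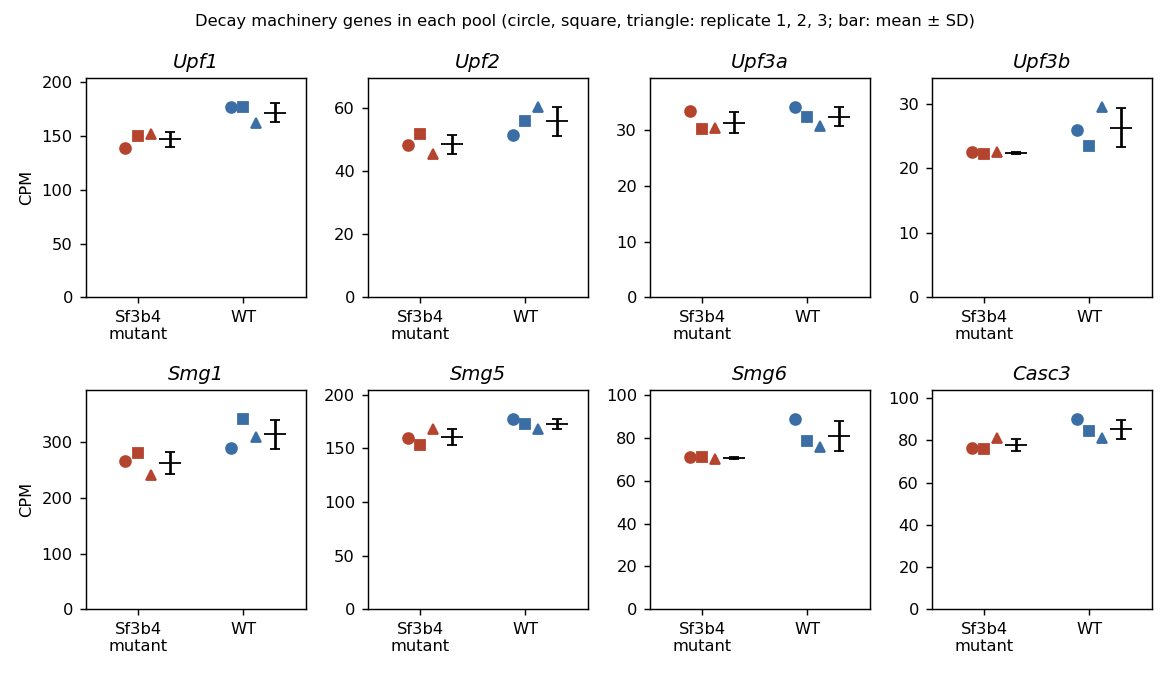
Level of each of the 8 decay machinery genes in CPM (vertical axes, from 0) in the 3 mutant pools (left, red) and the 3 WT pools (right, blue), with black bars for the mean and SD of each group. The mutant points lie wholly below the WT points for Upf1, Upf3b, Smg1 and Smg6 and overlap them for the other 4 genes.

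Upf1 (ENSMUSG00000058301, mm10 chromosome 8, 70331525 to 70353278, minus strand) encodes the RNA helicase at the centre of the pathway. It was read at 139, 150 and 152 CPM in mutant replicates 1, 2 and 3, against 177, 176 and 161 CPM in WT replicates 1, 2 and 3. Every mutant pool was below every WT pool. The means were 147 ± 6.98 CPM in mutant and 172 ± 8.72 CPM in WT pools (SD, n = 3 each). The log2 fold change was -0.22 (SE 0.074). The adjusted p was 0.0834 by edgeR's two-sided quasi-likelihood test, above the threshold, and the 95% interval of the fold change ran from 0.768 to 0.955. Without WT replicate 3 it passed, with a log2 fold change of -0.27 (adjusted p = 0.0314), and the adjusted p ranged from 0.0274 to 0.368 over all alternatives.

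Upf2 (ENSMUSG00000043241, chromosome 2, 5951469 to 6056703, plus strand) encodes the adaptor that joins UPF1 to UPF3. Its level was 48.2, 51.8 and 45.5 CPM in mutant replicates 1, 2 and 3 and 51.3, 55.8 and 60.4 CPM in WT replicates 1, 2 and 3. The groups overlapped only through mutant replicate 2, which lay just above WT replicate 1. The log2 fold change was -0.20 (SE 0.0913; edgeR adjusted p = 0.195), with a fold interval of 0.760 to 0.994.

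Upf3a and Upf3b are paralogs that bind the exon junction complex. UPF3B is the more active of the pair in decay, and loss of UPF3B is known to raise UPF3A protein. Upf3a (ENSMUSG00000038398, chromosome 8, 13785615 to 13799193, plus strand) had 33.5, 30.2 and 30.5 CPM in mutant replicates 1, 2 and 3, against 34.2, 32.4 and 30.7 CPM in the WT replicates 1, 2 and 3. The groups overlapped only through mutant replicate 1, which lay above WT replicates 2 and 3. The log2 fold change of Upf3a was -0.04 (SE 0.0957; edgeR adjusted p = 0.825), the smallest of the 8. Upf3b (ENSMUSG00000036572, chromosome X, 37091678 to 37110322, minus strand) stood at 22.5, 22.3 and 22.6 CPM in mutant replicates 1, 2 and 3 and at 26.04, 23.5 and 29.5 CPM in WT replicates 1, 2 and 3. The mutant pools were nearly equal, whereas the WT pools spread more widely, with the lowest of them just above the highest mutant pool. At Upf3b counts of 274, 212 and 167 in mutant replicates 1, 2 and 3, the error of counting is larger than the spread of the mutant pools. Its log2 fold change of -0.24 (SE 0.108) did not pass (edgeR adjusted p = 0.196), and its fold interval of 0.723 to 0.994 reached the lowest value of the 8. Upf3b is X-linked, and Xist, the RNA of the inactive X, was at 213, 366 and 278 CPM in mutant replicates 1, 2 and 3 and at 381, 635 and 264 CPM in WT replicates 1, 2 and 3; the part of the pools' sex make-up in the Upf3b values was not tested.

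The Upf3 pair was also compared within each pool. Per kilobase of annotated exon, the ratio of Upf3b to Upf3a was 0.985, 1.08 and 1.09 in mutant replicates 1, 2 and 3 and 1.12, 1.06 and 1.41 in WT replicates 1, 2 and 3. WT replicate 3 stood apart and the other 5 pools lay close together. The mean log2 ratio was 0.07 ± 0.08 in mutant and 0.25 ± 0.22 in WT pools (SD, n = 3 each), a difference of -0.18 that was -0.05 without WT replicate 3. Per kilobase of the main coding transcript alone the ratio averaged 0.630 ± 0.0349 in mutant and 0.716 ± 0.111 in WT pools, so which paralog appears more abundant depended on the length used.

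Smg1 (ENSMUSG00000030655, chromosome 7, 118131308 to 118243670, minus strand) encodes the large kinase that phosphorylates UPF1. It was read at 267, 281 and 242 CPM in mutant replicates 1, 2 and 3 and at 291, 342 and 310 CPM in WT replicates 1, 2 and 3. No pools overlapped, and mutant replicate 3 was the lowest of all. The means were 263 ± 19.8 CPM in mutant and 314 ± 25.9 CPM in WT pools (SD, n = 3 each). The log2 fold change was -0.25 (SE 0.0821; edgeR adjusted p = 0.0783), with a fold interval of 0.744 to 0.946. It passed without WT replicate 1, at -0.30 (adjusted p = 0.0246), and its log2 fold change was 0.0076 (adjusted p = 0.957) once length and GC content were corrected for. Its adjusted p ranged from 0.0207 to 0.957 over all alternatives.

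Smg5 and Smg6 encode the proteins that act on phosphorylated UPF1: SMG5 promotes deadenylation and decapping, and SMG6 is the endonuclease that cuts the target near the premature stop. Smg5 (ENSMUSG00000001415, chromosome 3, 88336260 to 88362338, plus strand) was at 159, 153 and 168 CPM in mutant replicates 1, 2 and 3 and at 177, 173 and 168 CPM in WT replicates 1, 2 and 3. The highest mutant pool just exceeded the lowest WT pool, and the log2 fold change was -0.11 (SE 0.0715; edgeR adjusted p = 0.392; fold interval 0.836 to 1.03). Smg6 (ENSMUSG00000038290, chromosome 11, 74925823 to 75164448, plus strand) was at 70.8, 71.1 and 70.1 CPM in mutant replicates 1, 2 and 3 and at 88.7, 78.3 and 75.7 CPM in WT replicates 1, 2 and 3. Its mutant pools were all below its WT pools and varied far less among themselves, with SDs of 0.504 and 6.88 CPM in mutant and WT pools. At its counts of 863, 676 and 518 in mutant replicates 1, 2 and 3, the error of counting is larger than the mutant SD. The log2 fold change was -0.19 (SE 0.082; edgeR adjusted p = 0.168; fold interval 0.775 to 0.986).

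Casc3 (ENSMUSG00000078676, chromosome 11, 98804905 to 98833814, plus strand) encodes a component of the exon junction complex, also called MLN51 or Barentsz, that promotes NMD. Its level was 76.3, 76.0 and 81.0 CPM in mutant replicates 1, 2 and 3 and 90.1, 84.6 and 80.9 CPM in WT replicates 1, 2 and 3. Mutant replicate 3 and WT replicate 3 met, and the other pools kept the order of the groups. The log2 fold change was -0.13 (SE 0.0775; edgeR adjusted p = 0.32; fold interval 0.814 to 1.02). Of its exonic bases 11.5% overlap a gene on the opposite strand, whose reads cannot be told apart because the sources used here do not say whether strand was used in counting; for the other 7 genes this share was at most 2.87%.

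**Figure D2:**
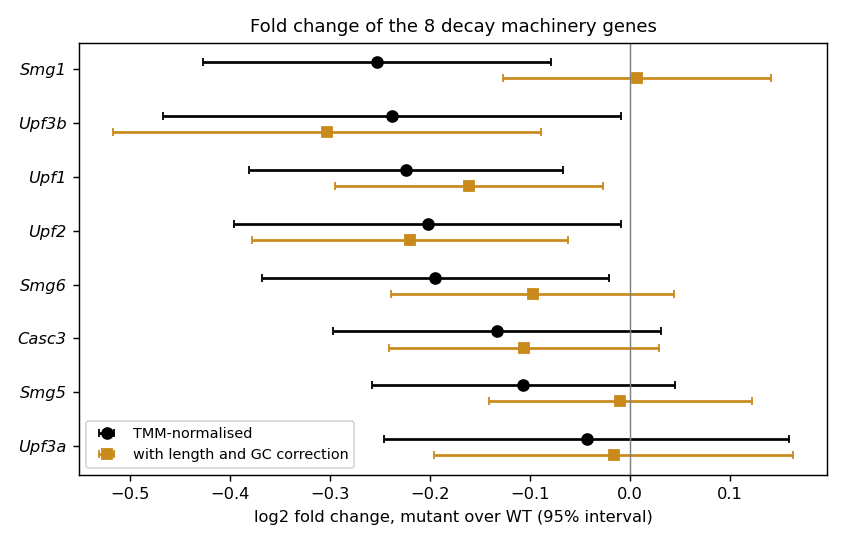
Log2 fold change, mutant over WT, of the 8 decay machinery genes with 95% intervals (horizontal axis), after TMM scaling alone (black circles) and corrected for GC content and exon length (orange squares). Every black point is negative, and the correction moved Smg1 to 0.0076 and Smg5 to -0.0096 while Upf3b became the lowest at -0.30.

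Gene length moved with the fold changes across the transcriptome. In 5 equal classes of exonic length, the median log2 fold change of tested genes was 0.066 in class 1, the shortest, then 0.046, 0.021, -0.020 and -0.10 in class 5, the longest, where 67.9% of genes were negative. Smg1 (23984 bp of annotated exon) and Smg6 (8453 bp) lay in class 5, Upf2, Upf3a and Smg5 in class 4, and Upf1, Upf3b and Casc3 in class 3. Each of the 8 lay below the median of its class. With length and GC content corrected, none of the 8 passed, 7 were negative and the median was -0.10. The lowest were then Upf3b at -0.30 (edgeR adjusted p = 0.0734) and Upf2 at -0.22 (adjusted p = 0.0786).

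**Figure D3:**
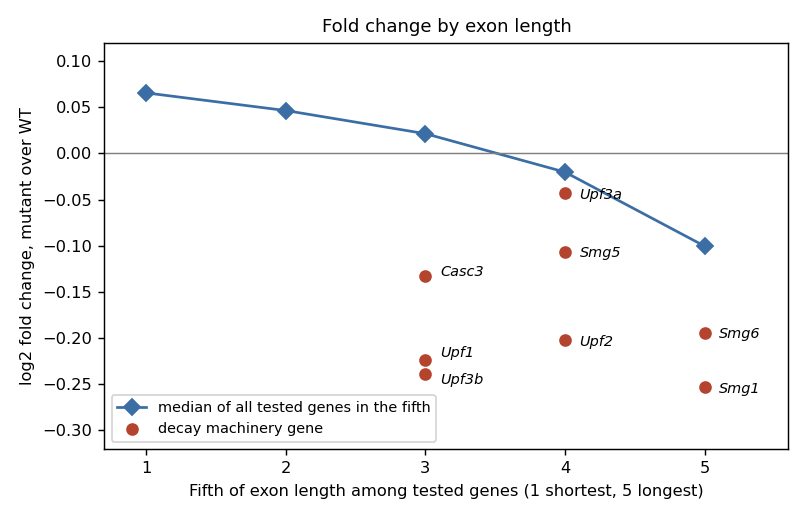
Log2 fold change, mutant over WT (vertical axis), against class of exonic length among tested genes (horizontal axis, 1 shortest to 5 longest). Blue diamonds are the medians of all tested genes in a class, from 0.066 to -0.10, and red points are the 8 decay machinery genes, each of which lies below the median of its class.

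Counts per gene add all isoforms together, and for Smg1, Smg5 and Smg6 the annotation holds, beside the main coding transcript, 1 transcript each that is classed as an NMD target. For the other 5 genes it holds none. In the main transcripts of Upf2, Upf3a, Upf3b, Smg1, Smg5 and Smg6 the stop codon lies after the last exon junction, and in those of Upf1 and Casc3 it lies 3 and 42 nt before it. In the decay isoforms the stop lies 10397 nt (Smg1), 434 nt (Smg5) and 1379 nt (Smg6) before the last junction, beyond the 50 nt that is the usual limit. These isoforms were picked by their annotated class as NMD targets, so the distances describe the annotation and are no result of these data. Among tested genes with a complete main coding transcript 0.391% have a stop over 50 nt before the last junction in that transcript. This share is over main transcripts only and holds no isoform classed as an NMD target, so it is no yardstick for the decay isoforms. The decay isoforms of Smg1, Smg5 and Smg6 are annotated with a 5′ untranslated region of 0 nt. Their annotated coding stretches of 178, 541 and 1070 nt are no multiples of 3. These models therefore appear to lack their 5′ ends, and their start codons are not known here. The sequences round the stop codons of the main and decay transcripts are shown to place these stops. They do not show the distance to the last junction, by which the pathway would recognise a stop as premature. The stop codon is in capitals, with 15 bases before it and 12 after it on the transcript's strand. Transcripts are those of GENCODE on GRCm38, minus strand for Smg1 and plus strand for Smg5 and Smg6.
Smg1 main, chr7:118135529-118135558: tggacagcttgggtgTGAatggcaagacag
Smg1 decay isoform, chr7:118210768-118210797: gaagactggctactgTAAagcagctgaagg
Smg5 main, chr3:88361091-88361120: tggaaggagattggtTGAgactggtctcca
Smg5 decay isoform, chr3:88347580-88349123, across an intron: tattgctacttgcgcTGAtgcagtagctta
Smg6 main, chr11:75162933-75162962: tgggcccaggtgggcTGAggggaccacact
Smg6 decay isoform, chr11:74990079-74990108: attccctgcagtggcTGAgaaggtccttaa
The deposited counts do not separate these isoforms, so the share of decay isoforms in either genotype was not measured here. Features of the main transcripts known in human cells to make NMD factor messages sensitive, a long 3′ untranslated region or an upstream reading frame, were uneven in these mouse genes. The 3′ untranslated region of Smg1 is 4233 nt, longer than in all but 6.41% of tested genes, while those of the other 7 run from 719 to 1596 nt around a median of 1084 nt for tested genes. An upstream reading frame that ends within the 5′ untranslated region was found in Smg5 and Casc3 only, and in 44.4% of tested genes.

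Levels of different genes were compared per kilobase. Over the union of annotated exons the order by mean in mutant pools was Upf1 (31.8 ± 1.51 CPM per kb), Smg5 (23.0 ± 1.07), Casc3 (18.1 ± 0.649), Smg1 (10.98 ± 0.827), Upf2 (8.86 ± 0.574), Smg6 (8.36 ± 0.0596), Upf3b (5.62 ± 0.0388) and Upf3a (5.35 ± 0.312; SD, n = 3 each). In WT pools the order was the same, from 37.1 ± 1.89 CPM per kb for Upf1 to 5.53 ± 0.294 for Upf3a. The ranges of Upf2 and Smg6 overlapped in both genotypes, so that this pair cannot be ordered, and those of Upf3b and Upf3a overlapped in mutant pools. Per kilobase of the main coding transcript Smg5 came first, with 36.0 ± 1.68 in mutant and 38.8 ± 1.09 in WT pools, ahead of Upf1, and Upf3a moved up to lie after Smg1, with 15.3 ± 0.888 in mutant and 15.8 ± 0.839 in WT pools. Upf1, Smg5, Casc3 and Smg1 were the 4 highest on both scales.

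**Figure D4:**
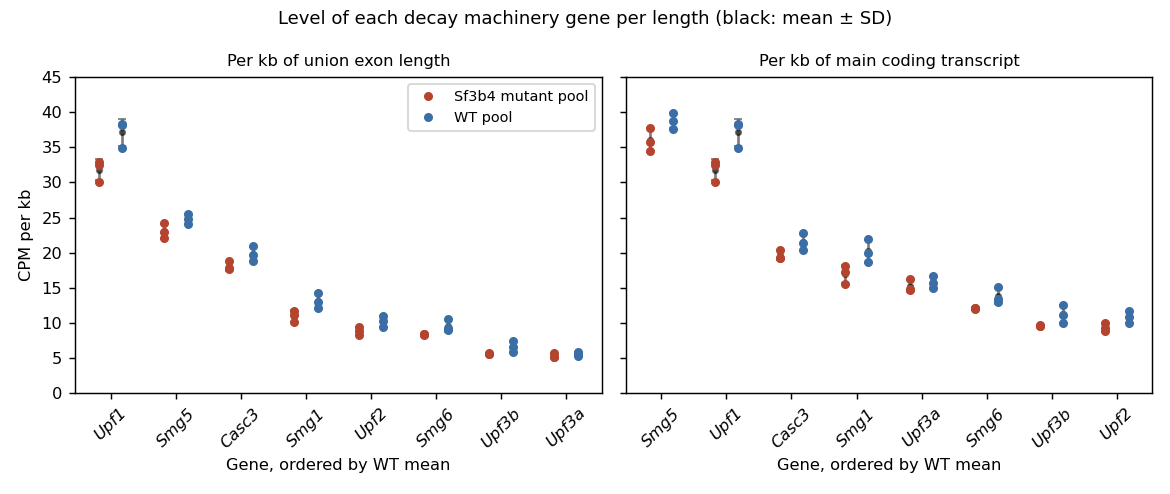
Level of each decay machinery gene in CPM per kb of annotated exon (left) and of the main coding transcript (right), in mutant pools (red) and WT pools (blue), ordered by the WT mean, with black bars for the mean and SD. Upf1, Smg5, Casc3 and Smg1 are the 4 highest on both scales, while the place of Upf3a depends on the length used.

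The 8 genes varied over the 6 pools in a loosely shared way. Of 28 pairs 27 had a positive Pearson correlation of log2 CPM, with a median of 0.49. The highest values were 0.95 for Smg5 with Casc3 and 0.91 for Smg6 with Casc3, and the lowest was -0.10 for Upf2 with Upf3a. These are descriptions over 6 pools that share the difference between genotypes and each pool's depth and scaling. Smg1, the gene with the smallest p, was most like Itprid2, Zfhx4, B4galt6, Prr14l and Camta1 (r = 0.989 to 0.993 over the 6 pools), and 320 of 9367 compared genes had r over 0.9 with it.

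Of 7 further NMD factor genes, among them partners of UPF1 and SMG1, Nbas fell and none rose. Their median log2 fold change was 0.00051, and of all tested genes 3.88% fell and 2.65% rose. Nbas, which encodes a factor for decay at the endoplasmic reticulum, was at 56.3, 57.9 and 64.6 CPM in mutant replicates 1, 2 and 3 and at 77.2, 76.4 and 67.2 CPM in WT replicates 1, 2 and 3. No pools overlapped, and the log2 fold change was -0.31 (SE 0.0883; edgeR adjusted p = 0.0495), a call lost in 12 of 18 alternatives, among them DESeq2 and 5 of the 6 fits that left out 1 pool (all but WT replicate 3). Smg9 (-0.22) and Smg8 (0.15), whose products restrain the SMG1 kinase, and Ruvbl1 (0.072), which encodes an ATPase of the complex, did not pass.

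The 9 other genes of the exon junction complex and its auxiliary proteins all had positive fold changes, beside 49.7% of all tested genes that had negative ones. Their median log2 fold change was 0.14, opposite in sign to the value of Casc3. With library size as the only scaling, without WT replicate 2 and without WT replicate 3, 1 of the 9 was negative. With length and GC content corrected none of the 9 was negative and the median was 0.13. Magohb, Pym1 and Magoh lay in length class 1, Rbm8a in class 2 and Sap18 in class 4. Of the 9 only Magohb rose, beside 2.65% of all tested genes that did. Magohb was at 17.98, 16.8 and 16.4 CPM in mutant replicates 1, 2 and 3. In WT replicates 1, 2 and 3 it was at 10.6, 12.1 and 12.8 CPM. Its log2 fold change was 0.53 (SE 0.127; edgeR adjusted p = 0.0215). This call was lost without any 1 of the mutant replicates 1, 2 and 3 or the WT replicates 1 and 2, and reads can be shared with Magoh, which encodes nearly the same protein. Magoh itself (0.21), Rbm8a (0.21), which encodes its partner Y14, Pym1 (0.28), which encodes a factor that takes the complex apart, and Sap18 (0.14) did not pass. Without WT replicate 3, Magoh, Rbm8a and Magohb passed, all higher in mutant pools.

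None of 9 cap-binding and translation termination genes passed with edgeR, DESeq2 or limma-voom. Before adjustment 4 had an edgeR p under 0.05, Pabpc1 lower and Ncbp1, Etf1 and Eif3e higher, beside 23.2% of all tested genes. The 9 had a median log2 fold change of 0.036, and 4 of them had negative values, as did 49.7% of all tested genes. Pabpc1, the cytoplasmic poly(A)-binding protein gene, was at 828 ± 67.6 CPM in mutant and 975 ± 34.8 CPM in WT pools (log2 fold change -0.24, edgeR adjusted p = 0.0795). Etf1, the gene of the release factor that recognises stop codons, was at 504 ± 8.13 CPM in mutant and 427 ± 59.7 CPM in WT pools (0.24, adjusted p = 0.128). Ncbp1 (0.20), of the nuclear cap-binding complex, and Eif3e (0.20) did not pass either; without WT replicate 3, Etf1, Ncbp1 and Eif3e did, all higher.

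Of 17 genes that carry out mRNA decay, Xrn1 fell and none rose. This is 5.88% of the list, near the 6.52% of all tested genes that passed. Negative fold changes were seen in 12 (median -0.066), beside 49.7% of all tested genes. With length and GC content corrected 11 of the 17 were negative and the median was -0.047. Xrn1, the 5′-to-3′ exonuclease gene that degrades decapped messages, was at 50.9, 54.5 and 48.9 CPM in mutant replicates 1, 2 and 3 and at 61.6, 73.3 and 65.4 CPM in WT replicates 1, 2 and 3. The pools did not overlap, and the log2 fold change was -0.37 (SE 0.0896; edgeR adjusted p = 0.0225). The call was lost with the length and GC correction and without WT replicate 2 or any 1 mutant pool; Xrn1 holds 18585 bp of annotated exon. Dis3, a catalytic subunit gene of the exosome, had a log2 fold change of -0.24 (adjusted p = 0.0672), Edc4, the decapping scaffold gene, of -0.18, Dcp1b, a decapping cofactor gene, of -0.25, and Cnot7, a deadenylase gene, of 0.23, none of which passed.

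**Figure D5:**
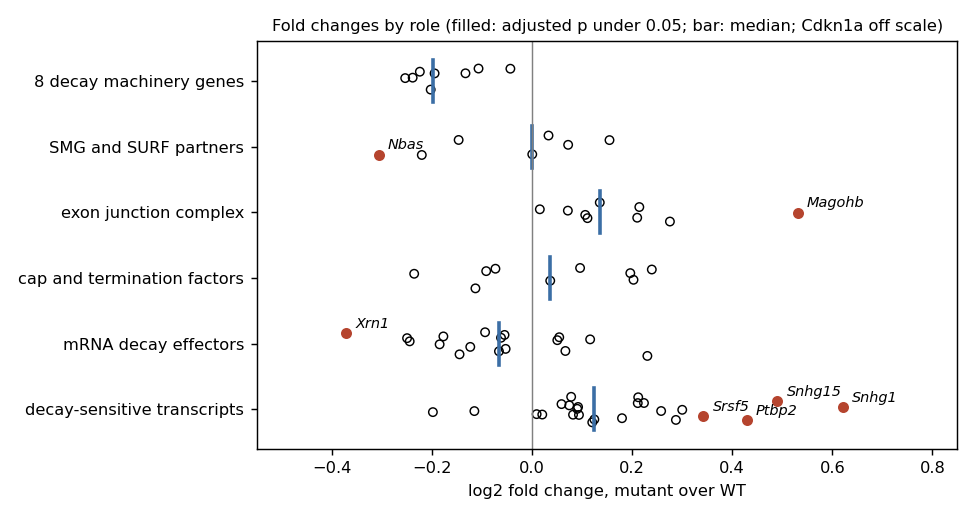
Log2 fold change, mutant over WT (horizontal axis), of the 8 decay machinery genes and of 5 lists of related genes (rows), with filled points for adjusted p under 0.05 and blue bars for each list's median. The medians run from -0.20 for the decay machinery genes to 0.14 for the exon junction complex, and Cdkn1a, a decay-sensitive transcript at 4.23, lies outside the axis.

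Transcripts known as targets of NMD were examined at the level of gene counts, which do not measure decay itself. Of 25 tested, 5 rose and none fell, beside 2.65% of all tested genes that rose and 3.88% that fell. Positive fold changes were seen in 23 and negative ones in 2, beside 49.7% of all tested genes that had negative ones. The median of the 25 was 0.12 on the log2 scale. With length and GC content corrected 3 of the 25 were negative and the median was 0.11. The 5 that rose with TMM scaling alone were Cdkn1a (4.23), Snhg1 (0.62), Snhg15 (0.49), Ptbp2 (0.43) and Srsf5 (0.34), with edgeR adjusted p from 0.000373 to 0.0319. Cdkn1a, the p21 cell cycle inhibitor gene, was at 21.7 ± 7.74 CPM in mutant and 1.20 ± 0.415 CPM in WT pools (SD, n = 3 each) and is also a target of p53. Snhg1, a host transcript of small nucleolar RNAs as is Snhg15, was at 132 ± 23.6 CPM in mutant and 86.4 ± 12 CPM in WT pools. Ptbp2 and Srsf5 encode splicing regulators with isoforms that carry poison exons, and gene counts do not tell those from coding isoforms. Cdkn1a passed in each of 18 alternatives. Ptbp2 and Srsf5 did not pass with the length and GC correction, nor Snhg15 in the 4 pools with Y-linked reads alone. Without mutant replicate 1 only Cdkn1a passed. Snhg1 and Snhg15 were lost without mutant replicate 2, Snhg15 and Srsf5 without mutant replicate 3, and Snhg1 without WT replicate 1 or 3. Gas5, a host transcript widely used as a reporter of NMD and named here after its values were seen, was at 239 ± 16.0 CPM in mutant and 227 ± 39.6 CPM in WT pools (log2 fold change 0.08, edgeR adjusted p = 0.693), with overlapping pools. Srsf7 (0.29), Srsf3 (0.26), Gadd45a (0.30) and Snhg8 (0.21) did not pass either.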

How the data were processed

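Total RNA of 6 pools of embryo heads was sequenced with a TruSeq Standard Total RNA kit, per the labels' protocols. The authors deposited raw read counts per gene, 1 file per pool, not normalized. Reads were assigned to mm10, as the submitters' processing notes list. The sources used here do not give the aligner, the counter or whether strand was used, so genes on opposite strands and near-identical copies can share reads. Of 54532 gene rows 54495 matched GENCODE M21, which gave symbols, lengths, GC content and transcripts. Samples were grouped by their titles. The 8 genes, the lists and the tests were chosen with earlier results of these data known.

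Genes kept by filterByExpr (14008) were scaled by TMM and tested with edgeR's robust quasi-likelihood test, two-sided, with Benjamini-Hochberg adjustment over all of them. The SE is the log2 fold change divided by the square root of F, and 95% intervals use the fit's degrees of freedom. Depth ran from 6930827 to 12251910 counts, and the counting error of a member was at most 7.76% in a pool. Named beside the members were the genes of each list that passed and the 4 largest others with a mean of at least 5 CPM. Ddit3 and Trib3 were not analysed here. Of the genes so chosen 1 is not reported here but stays in the counts. Alternatives were DESeq2, limma-voom, other scalings and filters, no robust estimation, a replicate block, a length and GC correction (splines with 4 degrees of freedom each), a covariate for Y-linked reads, a fit on Y-positive pools alone, and each pool left out. The fits were tested on simulated data. Tests ran in edgeR 4.0.16, DESeq2 1.42.0 and limma 3.58.1 under R 4.3.3, and plots in matplotlib 3.10.9.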

Additional observations from a re-analysis of the deposited data

How the results depend on the processing

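None of the 8 genes passed with TMM scaling, and 6 of 144 values of the 8 genes under an alternative did. Smg1 passed with library size as the only scaling (1 gene of the 8) and with no filter on low counts (1 gene), and Smg1 and Upf1 passed with Y-linked reads as a covariate (2 genes); with 1 pool left out the count was 0 to 1. The sign was negative in 141 of the 144 values. It was positive for Smg1 with the length and GC correction (0.0076) and for Upf3a in the Y-positive pools alone (0.018) and without WT replicate 1 (0.0024); the cause was not tested. With 1 pool left out Upf3a ran from -0.094 to 0.0024.

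Over all genes 914 passed. The count was 1804 with Y-linked reads as a covariate, 535 in the 4 pools with such reads (Y-positive) alone and 230 to 1810 with 1 pool left out, the extremes being without mutant replicate 1 and without WT replicate 3. The length and GC correction gave 639 genes higher and 519 lower, against 371 and 543 without it. The further NMD factor genes, the list that holds Nbas, counted 0 with DESeq2, limma-voom, DESeq2 size factors, no robust estimation and the replicate block. They also counted 0 with the length and GC correction and the Y-positive pools alone, and 0 to 1 with 1 pool left out. The exon junction complex counted 2 with the Y-linked covariate, 0 in the Y-positive pools alone and 0 to 3 with 1 pool left out. The cap and termination genes counted 1 with library size alone, 1 with the length and GC correction, 2 with the Y-linked covariate and 0 to 3 with 1 pool left out. The mRNA decay genes counted 2 with library size alone, 2 with a 5 CPM minimum chosen after seeing the data, 0 with the length and GC correction, 3 with the Y-linked covariate and 0 to 2 with 1 pool left out. The decay-sensitive transcripts counted 1 to 6 with 1 pool left out. Sf3b4 was -0.26 with the length and GC correction (edgeR adjusted p = 0.0461) and -0.32 to -0.17 with 1 pool left out. The Upf3b to Upf3a difference ran from -0.26 to -0.05 on the log2 scale with 1 pool left out. Replicate numbers did not pair the pools (correlations of same-numbered pools -0.26, 0.21 and -0.08); with the replicate as a block 694 genes passed, and none of the 8, and the calls of Snhg1 and Nbas were lost.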

Other observations

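Coding genes with an annotated decay transcript, the class to which Smg1, Smg5 and Smg6 belong, numbered 3567 among those tested. Of these 68 rose and 170 fell, with a median log2 fold change of -0.02. Of the 9003 coding genes without one 285 rose and 349 fell, with a median of 0.02. The part of gene length in this difference was not tested.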
